A study of Schizosaccharomyces pombe with 28 samples.

Results

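Mitochondrial ribosomal protein genes of the fission yeast Schizosaccharomyces pombe were followed through deletion of zfs1, of cbf12 and of both genes. The members are the genes whose symbol or synonym in the array's probe annotation starts with mrp, and 39 of the 2899 S. pombe genes measured met this rule. Each of the 39 is read by 1 probe set. The annotation holds 54 such genes. The other 15 have no probe set in the gene table used and are not analysed here; one of them, mrp1, is the RNA of an RNA-processing enzyme and not a ribosomal protein gene.

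The series title concerns control by Zfs1 of transcripts for proteins of cell-cell interaction. Zfs1 belongs to the tristetraprolin family of zinc finger proteins, which bind mRNAs at AU-rich elements and speed their decay. Cbf12 is a transcription factor that binds DNA and belongs to the CSL family. Polyadenylated RNA was measured on 28 Affymetrix arrays, from cells in mid-log growth in the rich medium YES at 30 °C without treatment. Project 582 held 3 double null mutants lacking zfs1 and cbf12, 3 cbf12 null mutants, 3 zfs1 null mutants and 3 wild type (WT) samples, project 529 held 5 zfs1 null mutants and 5 WT samples, and project 488 held 3 and 3. Samples are named biological replicates in the series text without mention of separate cultures, so a p-value here covers no more than the spread among these samples. Strain backgrounds, mating types, the extent of each deletion and the selection markers are not given in the labels used here.

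Mitochondrial ribosomes translate the few mRNAs encoded by the mitochondrial genome, which in yeasts specify mainly core subunits of the respiratory chain and the ATP synthase. Nearly all proteins of these ribosomes are encoded in the nucleus, translated in the cytoplasm and imported. Many belong to families shared with bacterial ribosomes, and others occur only in mitochondria. In the budding yeast Saccharomyces cerevisiae, the mRNAs of many such proteins are bound by the RNA-binding protein Puf3. Roles are given here from the budding yeast or bacterial namesakes, as roles in S. pombe were not among the sources used.

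Of the 39 genes, 27 encode proteins of the large subunit and 12 of the small subunit. By namesake, 29 belong to families with bacterial counterparts and 9 are specific to mitochondria, with mrp51 placed in neither class. They lie on chromosomes I (15 genes), II (17) and III (7). All 39 were well above background on all 28 arrays: the lowest signal of any member was 153, against a background of 3.65 to 5.44, the percentile 95 of probe sets for other species. The 50 budding yeast probe sets with mrp names, which share the array, reached at most 8.74. The zfs1 signal was 0.06 to 7.70 on arrays of strains lacking zfs1 and 389 to 630 on the others, and the cbf12 signal was 0.14 to 0.67 on arrays of strains lacking cbf12 and 170 to 1016 on the others, so both deletions match the labels.

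Most mitochondrial ribosomal protein genes changed little in any strain. Changes were tested on log2 signal with limma, and a gene was called where its p, adjusted by Benjamini-Hochberg over all 2899 genes, was below 0.05. Of the 39 members, 20 (51.3 percent) were called in at least 1 of 9 comparisons, against 2243 of all 2899 genes (77.4 percent), and 19 were called in none. Among the 8 comparisons of strains, mrpl39 was the only member that reached a 1.5-fold change in any, whereas 451 of all genes (15.6 percent) did. The number of comparisons in which a member was called was 7 for mrpl39, 5 for mrp5 and 4 for mrpl40, and at most 3 for each other member.

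Loss of Zfs1 over the 3 projects raised 6 members and lowered 3. These 9 are 23.1 percent of the members, against 41.6 percent of all genes called in the same fit (23.4 percent higher, 18.3 percent lower). The rises were those of mrps16, mrp7, mrp2, mrpl16, mrp51 and mrp10, and the falls those of mrpl39, mrpl44 and mrp4. The median log2 change was 0.024 over the members and 0.021 over all genes, and the interquartile range was -0.03 to 0.06 in the members and -0.08 to 0.10 in all genes. The median standard error was 0.041 in the members and 0.045 in all genes. For all 39 members the 95% interval of the change lay within 1.5-fold in either direction, as it did for 94.4 percent of all genes. That interval takes the zfs1 effect as 1 value for all projects. Within project 582 the intervals of mrp17, mrp5 and mrpl39 reached past 1.5-fold, and those of 92.3 percent of members and 86.6 percent of all genes did not. In the combined fit the 30 members without a call lay between -0.11 (mrpl37) and 0.15 (mrp17). Of the large subunit members, 2 of 27 rose and 2 fell, and of the small subunit members, 4 of 12 rose and 1 fell. MAS5 scales each array to a common trimmed mean, which would hide any change that most transcripts shared. Cultures were measured whole, so a change in the mix of cell states and a change per cell cannot be told apart.

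**Figure D1:**
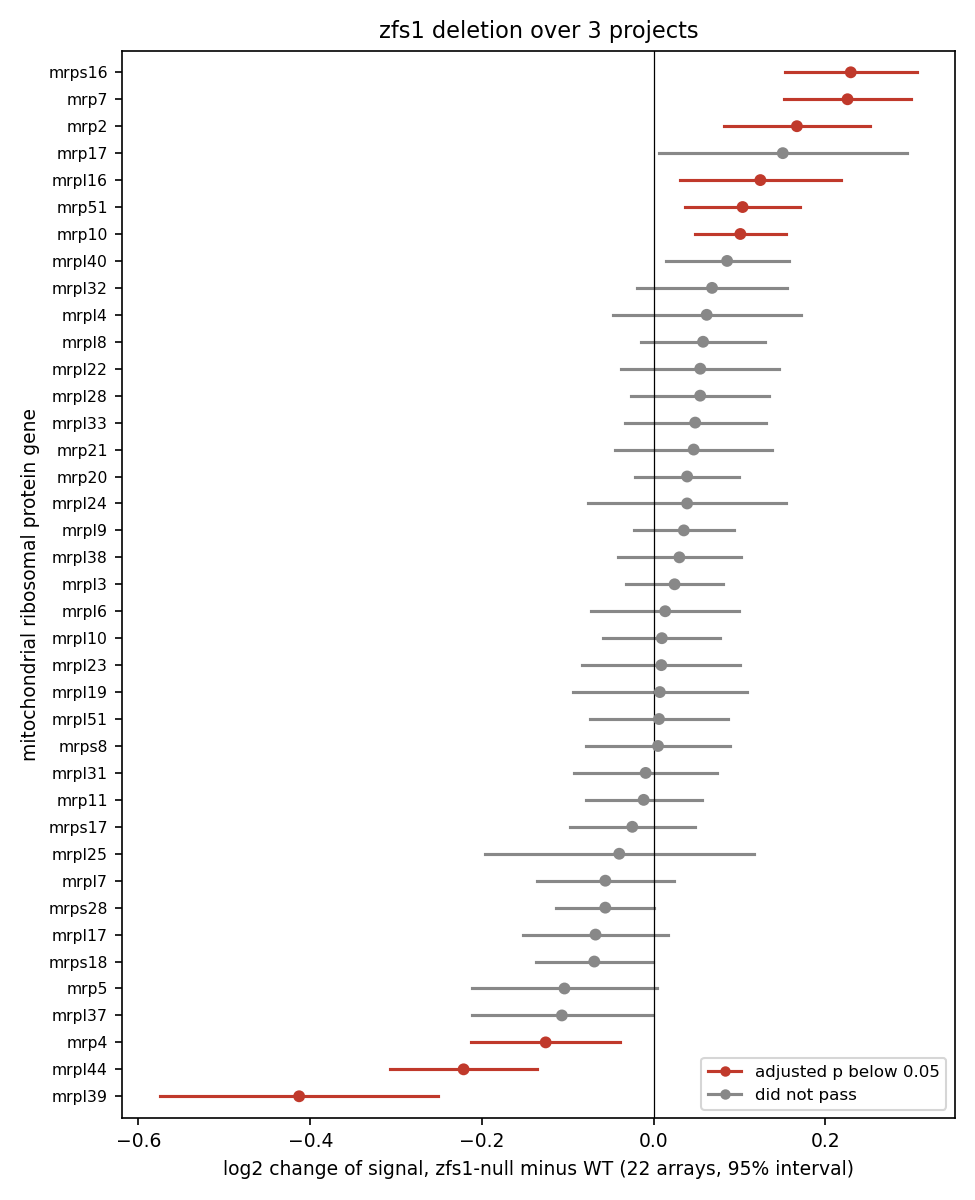
Log2 change of signal in zfs1 null mutants over WT for each of the 39 members (22 arrays of 3 projects, with a term for project); points are estimates and bars 95% intervals. Red marks the 9 members with an adjusted p below 0.05, from mrps16 at 0.23 to mrpl39 at -0.41.

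Within single projects the calls were fewer or fell on other members. In project 488, 3 members rose and 1 fell, against 19.7 percent of all genes called (9.87 percent higher, 9.8 percent lower). In project 529, 5 rose and 4 fell, against 42.2 percent (25.7 percent higher, 16.5 percent lower). In project 582, 1 rose and 3 fell, against 11.3 percent (4.14 percent higher, 7.14 percent lower). The median change was 0.021, 0.034 and -0.0045 over the members in projects 488, 529 and 582, against 0.0093, 0.028 and -0.00067 over all genes. No member was called in each of the 3 projects (the counts at an unadjusted p below 0.05 were 10, 9 and 9 in the same order). For 17 members (43.6 percent) the sign of the change was shared by all 3 projects, against 49.1 percent of all genes. A test of whether the zfs1 effect differs between projects passed for 6 members, mrpl39, mrps17, mrpl28, mrpl38, mrp5 and mrpl33, against 19.7 percent of all genes.

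Loss of Cbf12 with Zfs1 present lowered 5 members, mrpl39, mrp5, mrp10, mrps28 and mrpl3, and raised none, against 28.1 percent of all genes called (9.18 percent higher, 18.9 percent lower). The median change was -0.043 over the members and -0.07 over all genes. This comparison depends on scaling: with array medians set equal, the median of all genes moved to 0.04, that of the members to 0.07, and 1 member was called, as a rise. Under both of these scalings the median of the members lay above that of all genes. At an unadjusted p below 0.05 there were 6 members in the planned fit.

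In cells lacking Zfs1, loss of Cbf12 raised 3 members, mrpl39, mrp5 and mrpl40, and lowered none, against 9 percent of all genes called (3.24 percent higher, 5.76 percent lower). The median change of the double null mutants over the zfs1 null mutants was 0.0062 in the members and -0.033 in all genes. Against the cbf12 null mutants, the double null mutants had 6 members higher and none lower, against 33.8 percent of all genes called (18.8 percent higher, 15 percent lower). These were mrp5, mrpl40, mrpl39, mrp2, mrpl24 and mrps28, and the median change was 0.08 in the members and 0.063 in all genes. At an unadjusted p below 0.05, 8 members passed in the first of these comparisons and 10 in the second.

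In the double null mutants against WT, 4 members rose (mrp2, mrpl40, mrps16 and mrpl38) and 2 fell (mrps18 and mrpl37), against 35.1 percent of all genes called (15.5 percent higher, 19.7 percent lower). The median change was 0.019 in the members and -0.045 in all genes. The interaction, which asks whether the effect of cbf12 deletion differs with and without Zfs1, was positive for mrpl39, mrp5 and mrps28 and negative for no member that passed, against 9.76 percent of all genes called (4.38 percent higher, 5.38 percent lower). Its median was 0.047 in the members and 0.047 in all genes. The 582 comparisons share arrays, so their counts are not independent of each other.

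**Figure D2:**
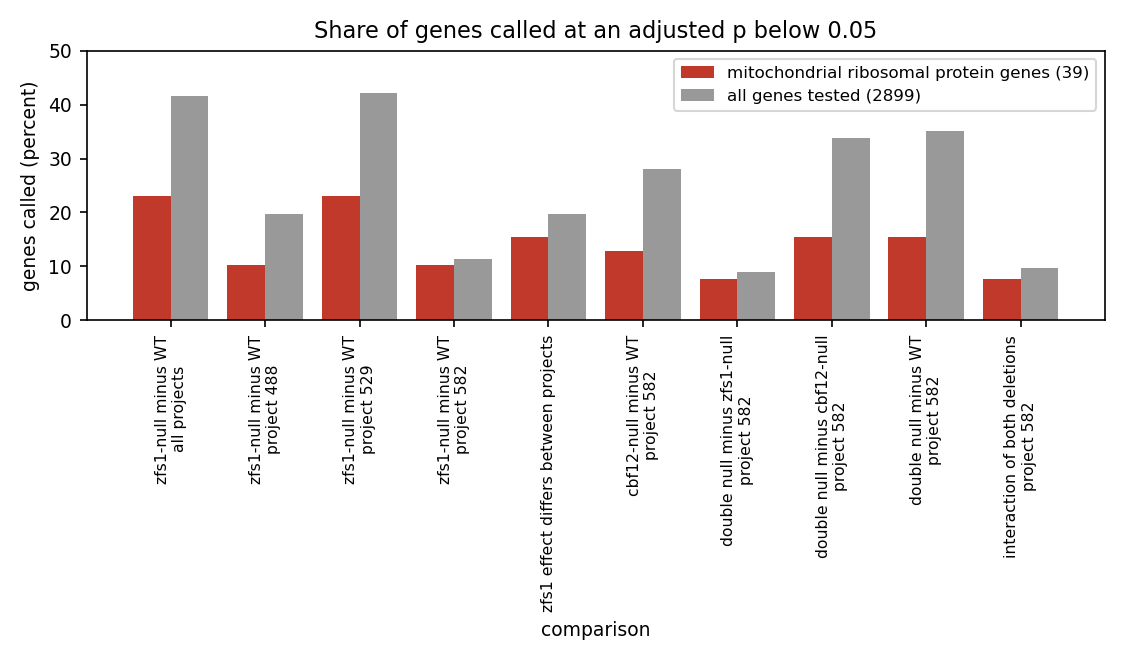
Percentage of genes called at an adjusted p below 0.05 in each of 10 tests, for the 39 mitochondrial ribosomal protein genes (red) and all 2899 genes (grey). The member bar is the lower one in all 10, by most for double null mutants over WT (15.4 against 35.1 percent) and by least in project 582 (10.3 against 11.3 percent).

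**Figure D3:**
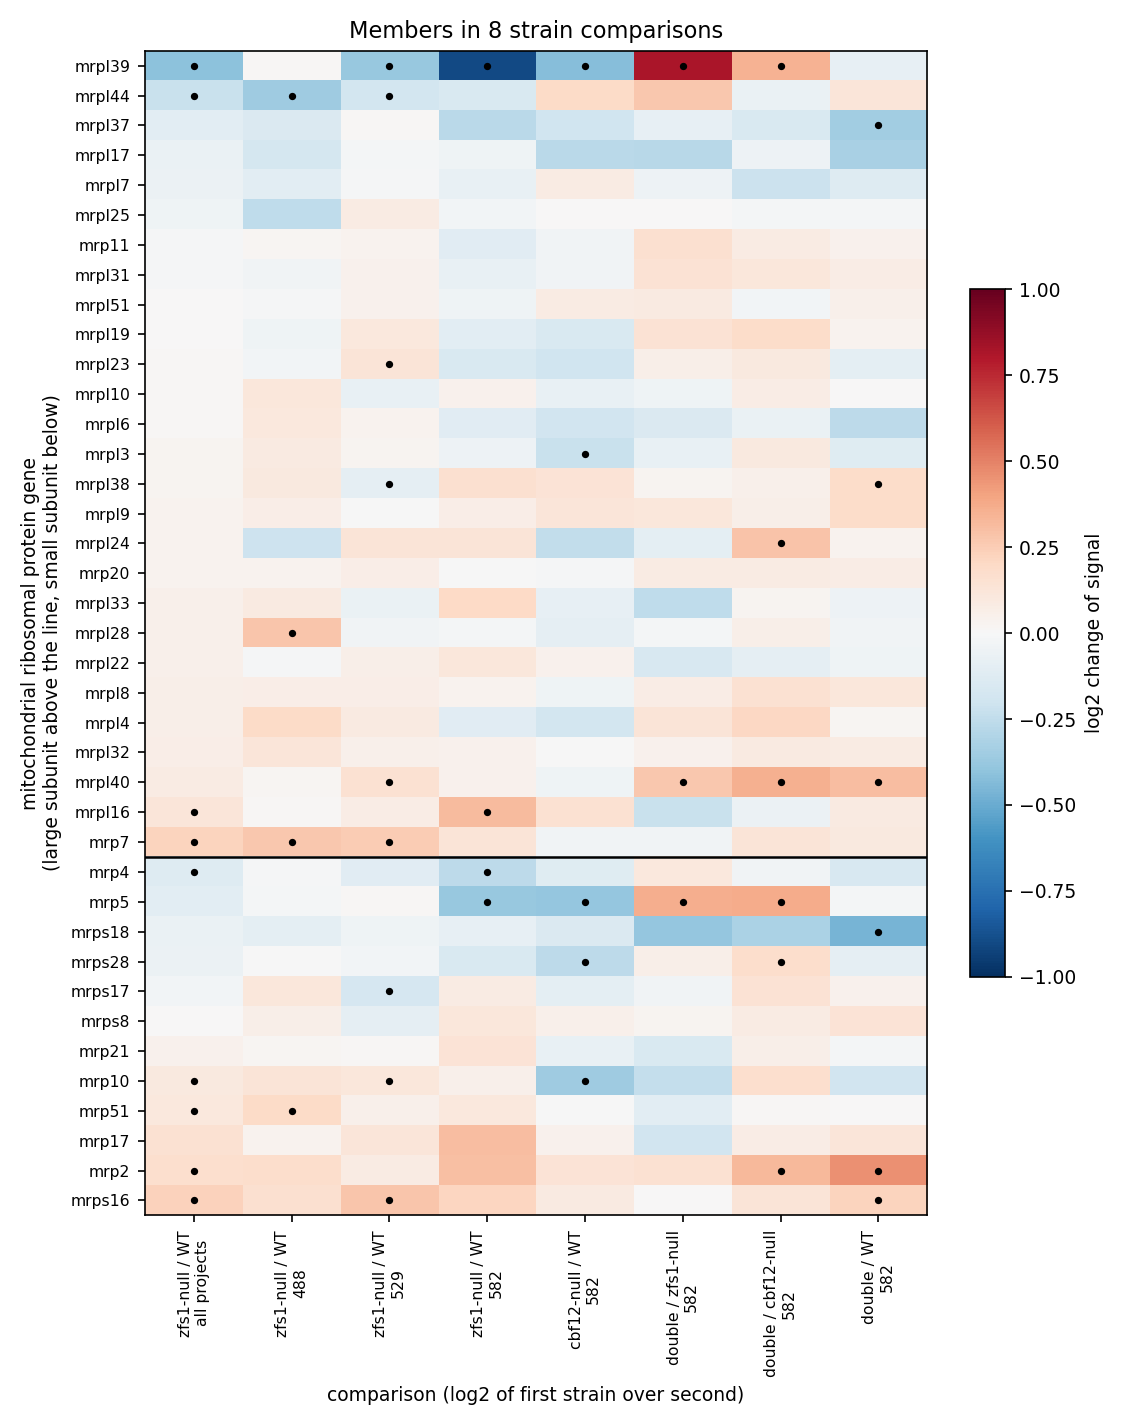
Log2 change of each member (rows; large subunit above the line, small subunit below) in 8 comparisons of strains (columns), with a dot where the adjusted p was below 0.05. Most cells are pale, and the darkest are those of mrpl39 in project 582 (-0.90 for zfs1 null mutants over WT, 0.82 for double null over zfs1 null mutants).

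Among large subunit members with bacterial counterparts, mrpl39 had the largest change of signal between strains, in project 582. Its budding yeast namesake belongs to the L33 family, whose bacterial member binds near the exit site for transfer RNA. In project 582 its signal was 647, 925 and 764 in the double null mutants, 635, 569.6 and 618 in the cbf12 null mutants, 403, 459 and 449 in the zfs1 null mutants and 782, 822 and 838 in WT. The zfs1 null mutants were the lowest strain and overlapped no other, the cbf12 null mutants lay between them and WT, and the double null mutants lay above the cbf12 null mutants without overlap and overlapped WT. The log2 change in zfs1 null mutants over WT was -0.90 ± 0.11 (SE, limma adjusted p = 7.72e-05), a ratio of 0.536. In cbf12 null mutants over WT it was -0.42 ± 0.11 (adjusted p = 0.0122), and in double null mutants over WT -0.08 ± 0.11 (adjusted p = 0.624; 95% interval -0.32 to 0.16).

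In cells lacking Cbf12, loss of Zfs1 did not lower mrpl39. The double null mutants exceeded the zfs1 null mutants by 0.82 ± 0.11 (limma adjusted p = 0.00019) and the cbf12 null mutants by 0.34 ± 0.11 (adjusted p = 0.0299), and the interaction was 1.24 ± 0.16 (adjusted p = 8.3e-05). Without double null replicate 2, which had the highest value of its group, the difference from the cbf12 null mutants was 0.21 and did not pass (adjusted p = 0.119), and that call was also lost when any 1 of 4 other arrays was left out (0.051 to 0.107). The fall in cbf12 null mutants over WT did not pass with array medians set equal (adjusted p = 0.076) or under quantile normalization (0.063).

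The zfs1 effect on mrpl39 was not the same in the other projects. In project 529 the signal was 416, 416, 438, 421 and 453 in the zfs1 null mutants, against 587, 560.1, 543.5, 543.7 and 549 in WT, with no overlap (-0.38 ± 0.05, limma adjusted p = 1.44e-05). In project 488 it was 358, 409 and 335 in the zfs1 null mutants, against 325, 371 and 396 in WT, and the groups overlapped (0.01; 95% interval -0.21 to 0.24). The difference between projects passed (adjusted p = 2.2e-05). The level of mrpl39 in the zfs1 null mutants spanned 335 to 459 over the 3 projects, while WT spanned 325 to 396 in project 488, 544 to 587 in project 529 and 782 to 838 in project 582. Between WT of project 582 and WT of project 488 the log2 difference was 1.17, the highest of any member, whereas the median over members was 0.08 and over all genes 0.011. Whether this difference in WT has a part in the changing zfs1 effect was not tested. When the WT level of project 582 was estimated without its own WT arrays, from the zfs1 null mutants there and the zfs1 effect seen elsewhere, the change of mrpl39 in cbf12 null mutants was 0.25 and did not pass, and that in double null mutants was 0.59. That estimate takes the zfs1 effect to be the same in every project, which the test above went against for mrpl39, so its values say little about the changes against WT. The comparisons between the 3 mutants do not use the WT arrays as a level. The interaction does use the WT arrays of project 582, and it was not run with the estimated WT level.

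**Figure D4:**
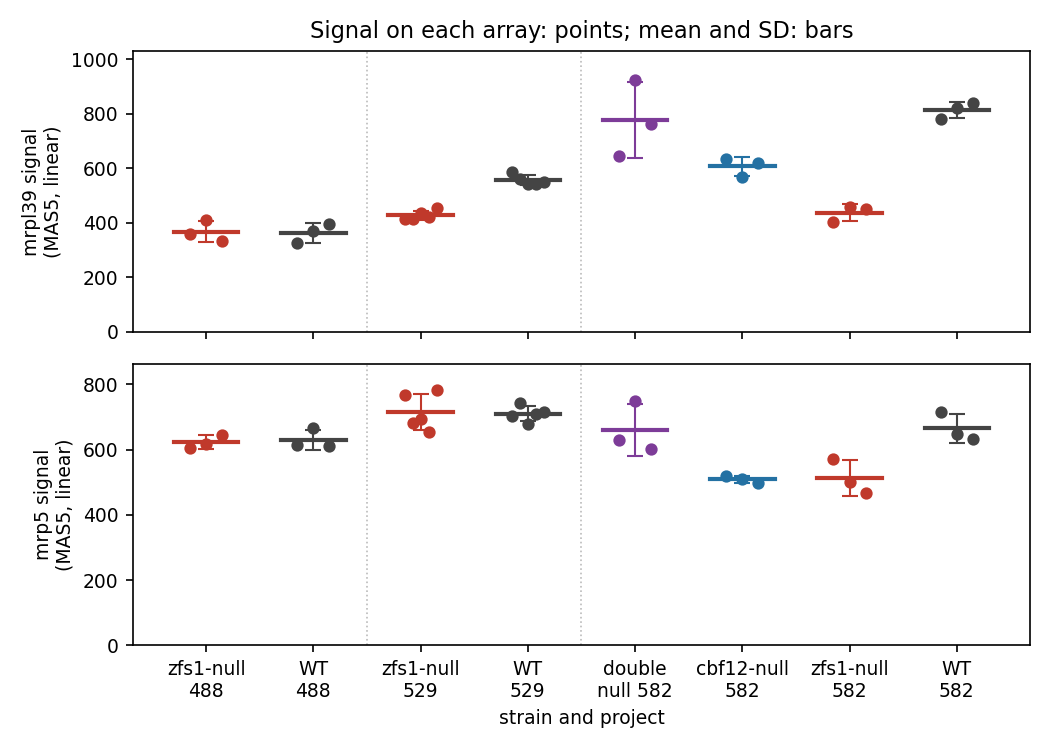
Signal (linear MAS5 units) of mrpl39 (upper panel) and mrp5 (lower panel) on each array, by strain and project; points are arrays, horizontal bars means and vertical bars SD. For mrpl39 the zfs1 null mutants stay between 335 and 459 in all projects while WT differs by project, and for both genes the double null mutants of project 582 overlap WT and lie above the zfs1 null mutants.

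The gene mrp7 encodes a protein of the L27 family, which in bacteria reaches the peptidyl transferase centre. In project 488 its signal was 1593, 1403 and 1497 in the zfs1 null mutants, against 1174, 1257 and 1303 in WT. In project 529 it was 1499.6, 1358, 1447, 1349.9 and 1442 in the zfs1 null mutants, against 1109.8, 1145, 1189.6, 1200.0 and 1295 in WT. In project 582 it was 1167, 1219 and 1343 in the zfs1 null mutants, against 1143, 1103 and 1155 in WT. Every zfs1 null array stood above every WT array of its project, the only called member of the combined comparison with this order in all 3 projects. The combined rise was 0.23 ± 0.04 (SE, limma adjusted p = 1.13e-05, 1.17-fold), with 0.27 (adjusted p = 0.0189), 0.26 (adjusted p = 0.000557) and 0.13 (adjusted p = 0.305) in projects 488, 529 and 582. The call in project 488 was lost without WT replicate 1 (adjusted p = 0.086), WT replicate 2 (0.065) or zfs1 null replicate 1 (0.077).

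The gene mrpl40, of the L24 family that acts early in assembly of the bacterial large subunit, was highest in the double null mutants. Its signal there was 1478, 1546 and 1445, against 1231, 1156 and 1117 in the cbf12 null mutants, 1215, 1228 and 1263 in the zfs1 null mutants and 1298, 1219 and 1093 in WT. The double null mutants lay above the other 3 strains without overlap, and those 3 overlapped each other. The differences were 0.35 ± 0.08 against cbf12 null mutants (limma adjusted p = 0.00224), 0.27 ± 0.08 against zfs1 null mutants (adjusted p = 0.0357) and 0.31 ± 0.08 against WT (adjusted p = 0.00578). The second of these calls was lost without WT replicate 2, any 1 of the zfs1 null replicates or double null replicate 2 (adjusted p = 0.054 to 0.119). In project 529 the rise in zfs1 null mutants was 0.15 (adjusted p = 0.0171), and with array medians set equal it was 0.09 (adjusted p = 0.123). The annotated span of mrpl40 overlaps that of its neighbour did4. In the double null mutants did4 changed by 0.27 against WT, 0.14 against zfs1 null and 0.0069 against cbf12 null mutants. Whether did4 RNA has a part in the mrpl40 signal was not tested.

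Smaller changes were seen in other members of bacterial large subunit families. The gene mrpl16, whose family lies near the aminoacyl site, had a combined rise of 0.12 ± 0.05 (SE, limma adjusted p = 0.0305). The within-project change was largest in project 582, where its signal was 1050.3, 1152 and 1106 in the zfs1 null mutants, against 772, 897 and 1006 in WT, without overlap (0.31, adjusted p = 0.0366). The combined call was lost under either other scaling (adjusted p = 0.079 with array medians set equal and 0.076 under quantile normalization) and on leaving out any 1 of 6 arrays, and the change in project 582 was 0.21 without WT replicate 1 (adjusted p = 0.12). The gene mrpl38, of the L14 family at the subunit interface, had zfs1 effects of 0.10, -0.09 and 0.16 in projects 488, 529 and 582, which differed between projects (adjusted p = 0.0144), but not under quantile normalization (adjusted p = 0.138). Its signal in the double null mutants was 2511, 2691 and 2513, against 2381, 2259 and 2140.2 in WT, with no overlap (0.19, adjusted p = 0.0435).

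The gene mrpl33, of the L30 family, had zfs1 effects of 0.09, -0.07 and 0.20 in projects 488, 529 and 582 (limma adjusted p = 0.0474 for the difference), and this call was lost on leaving out any 1 of 15 arrays. The gene mrpl24, of the L28 family, had signals of 496, 482 and 507 in the double null mutants, against 408, 398 and 414 in the cbf12 null mutants (0.28, adjusted p = 0.0321), and the groups did not overlap. The gene mrpl23, of the L13 family, rose by 0.13 in the zfs1 null mutants of project 529 (adjusted p = 0.0452), where the groups overlapped.

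Among large subunit proteins without a bacterial counterpart, mrpl44 fell with loss of Zfs1. In project 488 its signal was 709, 735 and 683 in the zfs1 null mutants, against 799.5, 934 and 999 in WT. In project 529 it was 965, 891, 977, 902 and 1027 in the zfs1 null mutants, against 1065, 1065, 1111, 1038 and 1130.4 in WT. In project 582 it was 832, 751 and 768 in the zfs1 null mutants, against 903, 805 and 901 in WT. The groups did not overlap in projects 488 and 529 and did in project 582. The combined change was -0.22 ± 0.04 (SE, limma adjusted p = 0.000111), with -0.35 (adjusted p = 0.0152), -0.18 (adjusted p = 0.00599) and -0.15 (adjusted p = 0.552) in projects 488, 529 and 582. Without a term for project the combined adjusted p was 0.055, and in project 488 the call was lost without WT replicate 2 (adjusted p = 0.07) or WT replicate 3 (0.052). Its neighbour in the annotation is cnp3, a kinetochore gene whose combined change was -0.82. The annotated spans of the genes do not overlap, and whether the neighbour has a part in the change of mrpl44 was not tested.

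The zfs1 change of mrpl28 was called in 1 project. The zfs1 null mutants of project 488 had signals of 2413, 2583 and 2556, against 1964, 2088 and 2175 in WT, without overlap (0.28 ± 0.06, limma adjusted p = 0.00829). In projects 529 and 582 the changes were -0.04 and -0.02, and the difference between projects passed (adjusted p = 0.00441). The WT mean of mrpl28 was 2076, 2950 and 2520 in projects 488, 529 and 582, and the zfs1 null mean was 2517, 2869 and 2490. Whether the difference in WT has a part in the changing zfs1 effect on mrpl28 was not tested. Another mitochondria-specific gene, mrpl3, whose budding yeast namesake has an RNase III-like fold, had signals of 948, 1049 and 959 in the cbf12 null mutants, against 1171, 1131 and 1139 in WT (-0.22, adjusted p = 0.038). Those groups did not overlap, but the fall did not pass with array medians set equal. For mrpl37 the signal was 384, 415 and 485 in the double null mutants, against 619, 533 and 482 in WT (-0.35, adjusted p = 0.0368). These groups overlapped, and the call was lost under quantile normalization (-0.13, adjusted p = 0.521) and with the WT level of project 582 estimated without its WT arrays (-0.13, adjusted p = 0.415).

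Among small subunit members, mrps16 had the largest rise with loss of Zfs1 in the combined comparison and in project 529, but not in projects 488 and 582, where mrp51 (0.19) and mrp17 (0.31) had the largest positive changes. It encodes a protein of the S16 family, which takes part in assembly of the bacterial small subunit. In project 488 its signal was 937, 1065 and 882 in the zfs1 null mutants, against 845, 796 and 942 in WT. In project 529 it was 1100.5, 1085, 1122, 1118 and 1102 in the zfs1 null mutants, against 962, 908, 883, 914 and 888 in WT. In project 582 it was 1264, 1262 and 1381 in the zfs1 null mutants, against 1139, 1185 and 1037 in WT. The groups overlapped in project 488 alone of the 3. The combined rise was 0.23 ± 0.04 (SE, limma adjusted p = 1.78e-05, 1.17-fold), with 0.16 (adjusted p = 0.226), 0.28 (adjusted p = 4.16e-05) and 0.22 (adjusted p = 0.07) in projects 488, 529 and 582. In the double null mutants the signal was 1339, 1243 and 1337, above all 3 WT arrays of project 582 (0.22, adjusted p = 0.0292), but the call was lost without WT replicate 3 (0.17, adjusted p = 0.134) or double null replicate 1 or 3.

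**Figure D5:**
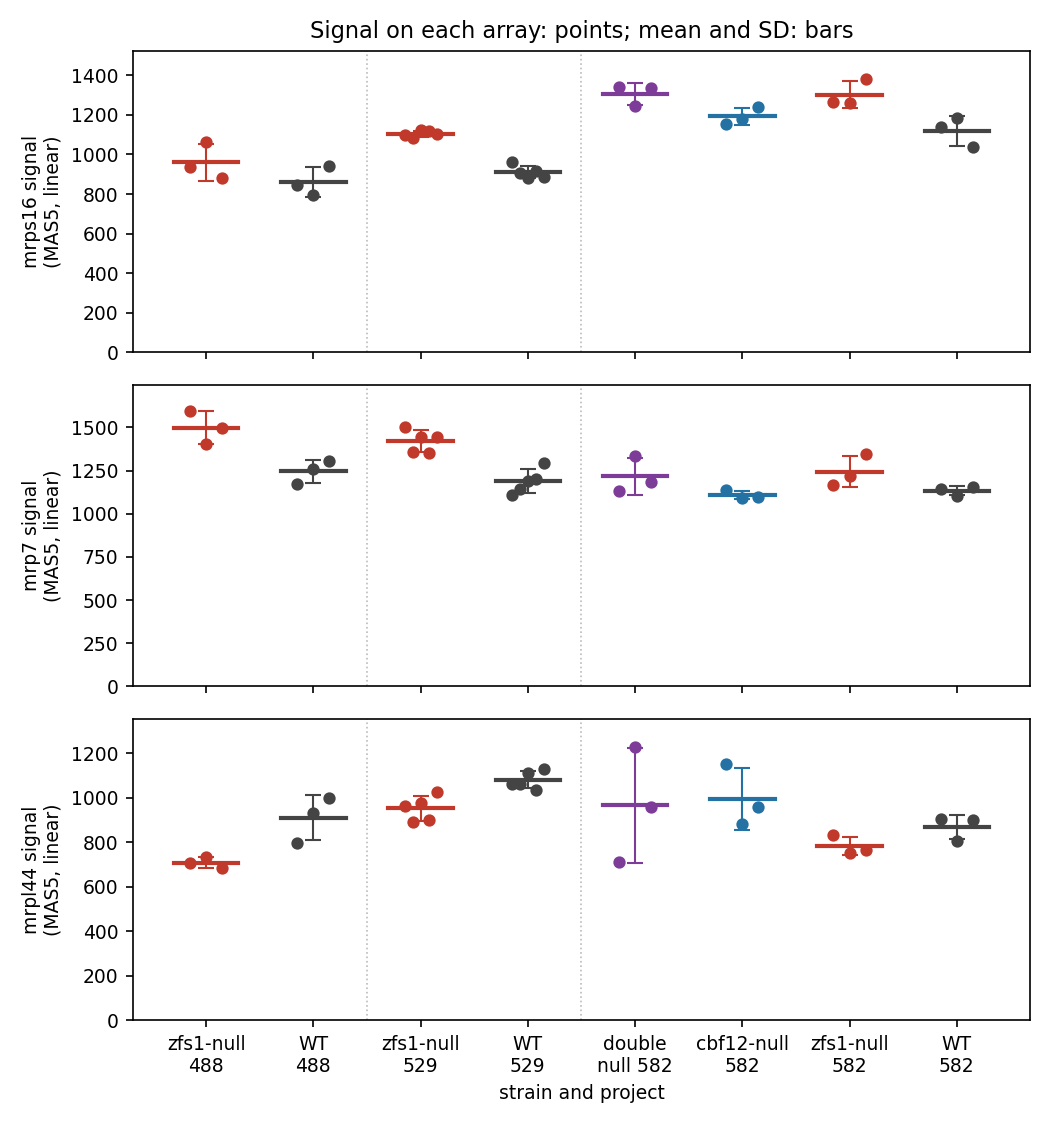
Signal (linear MAS5 units) of mrps16, mrp7 and mrpl44 on each array, by strain and project; points are arrays, horizontal bars means and vertical bars SD. The zfs1 null mutants lie above WT in each project for mrp7, above it without overlap in projects 529 and 582 for mrps16, and below it without overlap in projects 488 and 529 for mrpl44.

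The gene mrp2, of the S14 family in the head of the small subunit, rose by 0.17 ± 0.04 (SE, limma adjusted p = 0.00211) in the combined comparison. In project 488 its signal was 2505, 2410.0 and 2680.1 in the zfs1 null mutants, against 2209, 2104 and 2417 in WT. In project 529 it was 2541, 2702, 2671, 2724 and 2424 in the zfs1 null mutants, against 2445, 2633, 2589.7, 2442 and 2253 in WT. The groups overlapped in both of these projects and passed in neither. In project 582 it was 2867, 3655 and 2874 in the double null mutants, 2346, 2325 and 2811 in the cbf12 null mutants, 2537, 2879.9 and 2981 in the zfs1 null mutants and 2468, 2278 and 2067 in WT. The zfs1 null mutants lay above WT there without overlap, but that change did not pass (0.30, adjusted p = 0.077). It was 0.18 in project 488 and 0.08 in project 529. The double null mutants lay above the cbf12 null mutants (0.32, adjusted p = 0.0274) and WT (0.46 ± 0.11, adjusted p = 0.00444) without overlap, and overlapped the zfs1 null mutants. The difference from WT was 0.30 under quantile normalization and 0.27 with the WT level of project 582 estimated without its WT arrays, and passed in both. The annotated span of mrp2 overlaps that of its neighbour apl6, whose combined change was 0.23, and whether apl6 RNA has a part in the mrp2 signal was not tested.

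The gene mrp5, of the S5 family that in bacteria bears on decoding accuracy, showed the second interaction. In project 582 its signal was 628, 749.5 and 601.5 in the double null mutants, 520.2, 509 and 498 in the cbf12 null mutants, 572.5, 501.5 and 465 in the zfs1 null mutants and 716, 648 and 633 in WT. Both single mutants lay below WT without overlap, and the double null mutants lay above both single mutants and overlapped WT. The change was -0.38 ± 0.11 in the zfs1 null mutants (SE, limma adjusted p = 0.0291), -0.38 ± 0.11 in the cbf12 null mutants (adjusted p = 0.0136) and -0.02 in the double null mutants over WT (95% interval -0.24 to 0.21). The double null mutants exceeded the zfs1 null mutants by 0.36 (adjusted p = 0.0432) and the cbf12 null mutants by 0.37 (adjusted p = 0.0148), and the interaction was 0.75 ± 0.15 (adjusted p = 0.00394). The interaction kept its call under every alternative run for it. It was not run with the WT level of project 582 estimated without its WT arrays.

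The single contrasts of mrp5 were less firm than its interaction. The zfs1 call in project 582 was lost under quantile normalization (adjusted p = 0.08) and without WT replicate 1 or 2 or zfs1 null replicate 2 or 3 (0.065 to 0.154), and the call against the cbf12 null mutants without double null replicate 2 (0.27, adjusted p = 0.054). The call against the zfs1 null mutants was lost when any 1 of 7 arrays was left out. The fall in cbf12 null mutants did not pass with array medians set equal (adjusted p = 0.072) or under quantile normalization (0.068). That call was also lost with the WT level of project 582 estimated without its WT arrays. Such an estimate takes the zfs1 effect to be the same in every project. In projects 488 and 529 the zfs1 effect on mrp5 was -0.02 and 0.0088, and the difference between projects passed (adjusted p = 0.0156), but not under quantile normalization (0.086).

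The gene mrps28, of the S15 family that binds early to the small subunit RNA in bacteria, had the third interaction that passed (0.33 ± 0.09, limma adjusted p = 0.035). Its signal was 1409, 1471 and 1442 in the double null mutants, 1259.5, 1328 and 1237 in the cbf12 null mutants, 1414, 1347 and 1384 in the zfs1 null mutants and 1614, 1463 and 1521 in WT. Both single mutants lay below WT without overlap, while the double null mutants lay above the cbf12 null mutants (0.18, adjusted p = 0.0487) and overlapped the zfs1 null mutants and WT. The change in the cbf12 null mutants over WT was -0.27 ± 0.07 (adjusted p = 0.00718), and this fall did not pass with array medians set equal. The interaction was lost with array medians set equal (adjusted p = 0.074) and on leaving out any 1 of 8 arrays. The annotated span of mrps28 overlaps that of its neighbour cog8. The interaction of cog8 was 0.48, and its changes in cbf12 null and zfs1 null mutants over WT in project 582 were -0.40 and -0.31. Whether cog8 RNA has a part in the mrps28 signal was not tested.

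The gene mrps17, of the S17 family, fell in 1 project and had values of the opposite sign in the others. In project 529 its signal was 1812, 1774, 1744, 1714 and 1697 in the zfs1 null mutants, against 1991, 1935, 1986, 1990.2 and 1926 in WT, without overlap (-0.17 ± 0.03, limma adjusted p = 0.00078). In project 488 it was 1588, 1541 and 1526 in the zfs1 null mutants, against 1389, 1445 and 1476 in WT, again without overlap but with the zfs1 null mutants above WT (0.11, adjusted p = 0.176). In project 582 the change was 0.08 (adjusted p = 0.458). The difference between projects passed (adjusted p = 0.00166). The WT mean of mrps17 was 1437, 1966 and 1593 in projects 488, 529 and 582, and the zfs1 null mean was 1552, 1748 and 1683. Whether the difference in WT has a part in the changing zfs1 effect on mrps17 was not tested.

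The gene mrp4, of the S2 family, had a combined change of -0.13 ± 0.04 (SE, limma adjusted p = 0.0183). In project 582 its signal was 803, 888 and 805 in the zfs1 null mutants, against 942, 1015 and 1029 in WT, without overlap (-0.26, adjusted p = 0.04). The changes in projects 488 and 529 were -0.0092 and -0.12 and did not pass. Without a term for project the combined adjusted p was 0.131, and the project 582 call was lost under both other scalings and on leaving out any 1 of 7 arrays. The gene mrps18, of the S11 family on the platform of the small subunit, had signals of 1105, 727 and 1109.5 in the double null mutants, against 1262, 1382 and 1336 in WT (-0.46 ± 0.13, adjusted p = 0.0131). The groups did not overlap, and without double null replicate 2, the lowest array, the change was -0.26 and still passed.

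The gene mrp10 encodes a small twin-cysteine protein specific to mitochondria. The zfs1 null mutants of project 488 had signals of 1612, 1572 and 1578, against 1471, 1409 and 1487 in WT. In project 529 the signal of mrp10 was 1702, 1688, 1690.1, 1687 and 1660.4 in the zfs1 null mutants, against 1493, 1581, 1644, 1552 and 1518 in WT. The groups did not overlap in either project, and the combined rise was 0.10 ± 0.03 (SE, limma adjusted p = 0.00261). By project, the change was 0.13 in 488 (adjusted p = 0.125), 0.11 in 529 (adjusted p = 0.0172) and 0.05 in 582 (adjusted p = 0.741). In project 582 the signal was 1202, 1452 and 1281 in the double null mutants, 1213, 1273 and 1023 in the cbf12 null mutants, 1535, 1620.2 and 1482 in the zfs1 null mutants and 1453, 1538 and 1476 in WT. The zfs1 null mutants overlapped WT there, and the cbf12 null mutants lay below WT (-0.35 ± 0.09, adjusted p = 0.00804). Without cbf12 null replicate 3 the change against WT was -0.26 and did not pass (adjusted p = 0.058), nor did it with array medians set equal (adjusted p = 0.06).

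The gene mrp51, whose budding yeast namesake is also needed for expression of mitochondrial mRNAs through their leaders, rose by 0.10 ± 0.03 (SE, limma adjusted p = 0.013) over the 3 projects. In project 488 its signal was 1785, 1851 and 1731 in the zfs1 null mutants, against 1561, 1572 and 1563 in WT, without overlap (0.19, adjusted p = 0.0294). In project 529 it was 1722, 1829, 1687, 1879 and 1954 in the zfs1 null mutants, against 1632, 1757, 1822, 1773 and 1789 in WT. In project 582 it was 1699, 1582 and 1531 in the zfs1 null mutants, against 1405, 1562 and 1494 in WT. The groups overlapped in projects 529 and 582. The combined call was lost with array medians set equal (adjusted p = 0.063) and without a term for project (0.174), and the project 488 call on leaving out any 1 of 5 arrays.

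The 19 members called in no comparison came from both subunits and both classes. Those of the large subunit with bacterial counterparts were mrpl7 (L5 family), mrpl6 (L6), mrp11 (L10, at the base of the stalk), mrpl19 (L11, at the GTPase centre), mrpl10 (L15), mrpl8 (L17), mrpl22 (L22, at the exit tunnel), mrp20 (L23, at the tunnel exit), mrpl4 (L29), mrpl32 (L32), mrpl9 (L3, near the peptidyl transferase centre) and mrpl33 (L30), the last of which passed only the test of a difference between projects. The mitochondria-specific ones were mrpl17, mrpl25, mrpl31 and mrpl51. Those of the small subunit were mrps8 (S8), mrp17 (S6) and mrp21 (S21). The intervals of the zfs1 change of these 19, over the 3 projects, all lay within 1.5-fold. The gene mrp17 was the dimmest member on all 28 arrays, and in project 582 the 95% interval of its zfs1 change (0.31) reached past 1.5-fold.

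The members did not move as a block across arrays. Relative to the WT mean of the same project, the median log2 difference over the 39 members lay between -0.09 and 0.07 on single arrays. After group means were removed, the median pairwise Pearson r between members over the 28 arrays was 0.039, against 0.0027 between all genes, given as a description since the arrays are shared. The median absolute log2 difference of members between the WT arrays of separate projects was 0.15 for project 488 minus 529, 0.159 for 582 minus 488 and 0.166 for 582 minus 529, against 0.202, 0.187 and 0.268 over all genes. The median absolute zfs1 effect over the members was 0.089, 0.068 and 0.111 in projects 488, 529 and 582, against 0.117, 0.112 and 0.127 over all genes, and 0.056 against 0.092 in the combined fit. For cbf12 null mutants over WT it was 0.0995 in the members and 0.175 in all genes. Whether the members differed more between projects than between strains was not tested. The spans of 23 of the 39 members overlap that of a neighbour in the annotation, none is next to zfs1 or cbf12, and the arrays' probes were not mapped here.

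Genes for proteins of the mitochondrial ribosome that carry other names gave few calls. Of 20 listed genes 11 were measured, among them rsm10, rsm18 and nam9, and none was called in the zfs1 comparison over all projects (median 0.048) or in cbf12 null mutants over WT (median -0.10). Of all genes, 41.6 and 28.1 percent were called in those comparisons. In double null mutants over WT, rml2 (-0.63) and img1 (-0.20) fell and rsm27 (0.34) rose, and over the cbf12 null mutants bot1 (0.25) rose. These are shares of 27.3 and 9.09 percent called, against 35.1 and 33.8 percent of all genes. Of 18 measured genes for mitochondrial translation factors and aminoacyl-tRNA synthetases, 7 fell and 1 rose with loss of Zfs1 over the 3 projects, a share of 44.4 percent called, against 41.6 percent of all genes. The falls included rrf1 (-0.35), a ribosome recycling factor, and ppr7 (-0.35), of the pentatricopeptide repeat RNA-binding family, and the rise was that of ppr5 (0.16). In cbf12 null mutants over WT, 5 of these 18 fell, among them ppr7 (-0.72) and ppr3 (-0.57), and none rose, a share of 27.8 percent called, against 28.1 percent of all genes.

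The nuclear genes for the respiratory chain and ATP synthase were called against WT mostly as rises. Of 33 measured, 21 rose and none fell in cbf12 null mutants over WT (median 0.29), a share of 63.6 percent called, against 28.1 percent of all genes, and the counts were 28 and 0 with array medians set equal and 21 and 0 under quantile normalization. Cytochrome oxidase subunit cox8 (0.67), qcr9 of the cytochrome bc1 complex (0.61) and the Rieske protein rip1 (0.54) rose most. With loss of Zfs1 over the 3 projects, 14 rose and none fell (median 0.09), led by qcr2 (0.22), a share of 42.4 percent called, against 41.6 percent of all genes. In double null mutants 11 rose and none fell against WT, and 1 rose and 11 fell against cbf12 null mutants. These are shares of 33.3 and 36.4 percent called, against 35.1 and 33.8 percent of all genes. Of 23 measured genes for mitochondrial protein import and chaperones, 2 rose and 1 fell with loss of Zfs1, and 1 rose and 3 fell in cbf12 null mutants over WT. These are shares of 13.04 and 17.4 percent called, against 41.6 and 28.1 percent of all genes. The gene tim18 is counted in both the respiratory and the import list. Its change in cbf12 null mutants over WT (0.31) is the 1 rise given for the import list.

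The 119 cytoplasmic ribosomal protein genes, which make the ribosomes of the cytosol, gave other counts than the members. With loss of Zfs1 over the 3 projects 39 rose and none fell (median 0.08), a share of 32.8 percent called, against 41.6 percent of all genes. The projects differed: 38 rose and none fell in project 488 (median 0.18), 3 rose and 12 fell in project 529 (median -0.029), and 2 rose and none fell in project 582 (median 0.17). These are shares of 31.9, 12.6 and 1.68 percent called, against 19.7, 42.2 and 11.3 percent of all genes. The test of a difference between projects passed for 58 of the 119 (48.7 percent), against 19.7 percent of all genes. In double null mutants over WT, 88.2 percent were called, against 35.1 percent of all genes. Of the 119, 105 were called higher and none lower (median 0.34), beside 4 and 2 of the 39 mitochondrial members with a median of 0.019. That count depends on scaling: it was 112 higher and none lower with array medians set equal, and 15 higher and 1 lower under quantile normalization. The difference between these lists and the members was not tested.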

How the data were processed

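The arrays were Affymetrix yeast arrays with probe sets for fission and budding yeast. For each of 10928 probe sets the authors deposited an intensity on every array, a linear MAS5 signal per the submitters' processing notes. MAS5 makes each array's signal separately and scales it. Version and settings: not given in the sources used here. Per the labels' protocols the RNA was amplified before labelling, which can distort differences. After trimming 2 percent at each end, the deposited signals averaged 500.1 to 500.2 on every array, and no arrays were identical.

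The gene table lists 5538 probe sets. Of these, 2917 have 1 S. pombe gene, 2601 a gene of another species, and 20 have several genes and were not used. Symbols came from an annotation of assembly ASM294v3, and 3 probe sets were matched by symbol only. No coordinates or sequences are printed, since no source used names the array's build. Taking the brightest probe set per gene left 2899 genes. Log2 signals were fitted with limma 3.58.1 in R 4.3.3 with a prior variance that follows intensity. Tests were two-sided. The combined zfs1 fit held 22 arrays and a term for project, and the 4 strains of project 582 were fitted together. The method was tested on simulated data. The number of arrays limits the precision.

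Members and lists were chosen with earlier results of these data known. Per comparison, values were given for the called members with the 3 largest rises and the 3 largest falls. Those called in the combined comparison with 1 sign in all projects were given on every array, up to 6 per direction, and mrpl39 in every comparison of project 582. Further called members were named where a count was 6 or fewer, after their values were seen. From each other list, up to 3 called genes per direction were named. Lists planned by product text were taken by symbol alone, as the table holds no product text. Alternatives were 2 other scalings (array medians set equal, quantile normalization), an offset of 16 before log2, a filter at background, the mean of a gene's probe sets, all probe sets of both species tested, no trend, no project term, only WT and zfs1 null arrays in project 582, a WT level of project 582 estimated without its WT arrays (a fit of the other 25 arrays), a replicate block, and leaving out each array.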

Additional observations from a re-analysis of the deposited data

Results flagged for a closer look

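In groups of 5 arrays, 2 of 78 group values of members held an array far from the others by Dixon's criterion, and chance gives about 1 in 20. The mrpl23 signal of zfs1 null replicate 3 in project 529 was 934, against 1024 to 1035 in the other 4 arrays of that group. The mrpl10 signal of zfs1 null replicate 1 in project 529 was 1203, against 1114 to 1136 in the other 4.

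The effect of zfs1 deletion differed between the 3 projects by limma's test of that difference for 6 members. The adjusted p was 2.2e-05 for mrpl39, 0.00166 for mrps17, 0.00441 for mrpl28, 0.0144 for mrpl38, 0.0156 for mrp5 and 0.0474 for mrpl33. The effect of cbf12 deletion differed with and without Zfs1 for 3 members, with an adjusted p for the interaction of 8.3e-05 for mrpl39, 0.00394 for mrp5 and 0.035 for mrps28. These 3 interactions were positive.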

How the results depend on the processing

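Replicate numbers are shared between groups. Of 26 same-numbered pairs of arrays, 11 had a correlation of deviations over 0.1 (range -0.301 to 0.306, both ends in project 582). In project 529 the same-numbered pairs had -0.055, 0.086, 0.145, 0.090 and 0.122. The highest value of a differently numbered pair there was 0.084. Whether the numbers mark a pairing was not tested. The replicate block was run as an alternative only. It gave 9 members called in the combined zfs1 comparison and, among named calls, ended that of mrpl33 for the difference between projects (adjusted p = 0.07). Of the named values of members, 951 recomputed values kept direction and side of the threshold, 120 lost the call and 5 reversed. The reversals were all of mrpl39 against WT in project 582: with the WT level of that project estimated without its WT arrays it was 0.25 in cbf12 null and 0.59 in double null mutants (an estimate that takes the zfs1 effect as equal in all projects, which for mrpl39 it was not), and the double null change was also 0.018 with array medians set equal, 0.049 under quantile normalization and 0.047 without double null replicate 1 (-0.21 without replicate 2).

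The number of members called moved by over 1.5 times to 5 without a term for project (combined), to 2 in project 582 (zfs1), 1 for double null over zfs1 null and 3 for double null over WT with all probe sets tested, and for cbf12 null over WT to 1 with array medians set equal, 3 under quantile normalization and 3 with the estimated WT level. With array medians set equal, the members' median became -0.024 in project 529, 0.065 for cbf12 null over WT, 0.078 for double null over zfs1 null and 0.12 for double null over WT, and under quantile normalization 0.026 and 0.072 for the cbf12 null and double null mutants over WT. The cause of these shifts was not tested.

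Leaving out single arrays gave 8 to 12 members called in the combined comparison, 1 to 5 in project 488, 7 to 9 in project 529, 1 to 6 in project 582, 4 to 8 for the difference between projects, 2 to 7 for cbf12 null over WT, 1 to 5 and 2 to 6 for double null over zfs1 null and cbf12 null, 4 to 7 over WT and 2 to 4 for the interaction. The arrays that moved a count by over 1.5 times were WT replicates 1 and 2 and zfs1 null replicate 1 in project 488, WT replicates 1 and 2, zfs1 null replicates 2 and 3 and cbf12 null replicate 3 for zfs1 in project 582, and cbf12 null replicate 3 for cbf12 null over WT. They were WT replicate 2, zfs1 null replicates 2 and 3 and double null replicate 1 for double null over zfs1 null, and cbf12 null replicates 1 to 3 and double null replicate 2 for double null over cbf12 null. The median for cbf12 null over WT ranged from -0.086, without WT replicate 1, to -0.024, without cbf12 null replicate 3.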
